A study of Mus musculus with 16 samples.

Results

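The subject is the set of 6 genomic windows around NF-kB genes in mouse: those of the subunit genes Nfkb1, Rel and Relb, and those of the feedback regulators Nfkbia, Nfkbiz and Tnfaip3. ChIP-seq had mapped H3K4me1 there, a histone mark of enhancers that also flanks promoters. The windows were given by position on mm9 and cover 0.91 Mb in all. They hold 87 of the 79796 summits listed for dendritic cells and 72 of the 81860 listed for 3T3 cells, a summit being the 1 bp position where a called peak was highest. Both cell types were unstimulated, and each contributed 1 library made with an antibody against H3K4me1 (clone CMA302). The dendritic cells were grown in GM-CSF from bone marrow progenitors that had been infected with a retrovirus and carried a hairpin directed against JmjD2d, a histone demethylase gene. The fibroblasts are the established line 3T3, grown under standard conditions. One label of the 3T3 library names dendritic cells, whereas its title, its description and the first line of its summit list say 3T3, which was followed here. The series also holds stimulated cells, H3K27ac, acetylated H4 and input DNA, and these 14 samples were not analysed here.

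NF-kB is a family of dimeric transcription factors that waits in the cytoplasm bound to inhibitors and enters the nucleus after signals such as LPS or TNF. Nfkb1 encodes a precursor that is processed to a DNA-binding subunit, Rel encodes c-Rel, a subunit prominent in blood cells, and Relb encodes a subunit of the alternative pathway, used in dendritic cell development. Nfkbia encodes the inhibitor IkB-alpha, Tnfaip3 encodes a ubiquitin-editing enzyme that damps signalling upstream, and Nfkbiz encodes a nuclear IkB protein that works with NF-kB on a second wave of genes. Nfkbia and Tnfaip3 are textbook targets of NF-kB itself, which makes them feedback regulators. Neither cell type had received a stimulus here, so the lists describe the mark in resting cells.

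Of the 6 genes, 3 were matched in the RefSeq promoter table, namely Nfkbia, Tnfaip3 and Rel, and only these were searched; Nfkb1, Relb and Nfkbiz were not. Their promoters are shown because each of the 3 holds a match to a kappaB site, the DNA element that NF-kB binds. The sequences come from RefSeq on GRCm38.p6, run 5′ to 3′ on the gene's strand, and span 250 bases before to 50 bases after the gene's start. The capitals mark the match to GGGNNTTTCC, here found on the opposite strand each time. The Nfkbia promoter lies on chr12:55492598-55492897, that of Tnfaip3 on chr10:19015361-19015660 and that of Rel on chr11:23770920-23771219, all on the minus strand.
Nfkbia: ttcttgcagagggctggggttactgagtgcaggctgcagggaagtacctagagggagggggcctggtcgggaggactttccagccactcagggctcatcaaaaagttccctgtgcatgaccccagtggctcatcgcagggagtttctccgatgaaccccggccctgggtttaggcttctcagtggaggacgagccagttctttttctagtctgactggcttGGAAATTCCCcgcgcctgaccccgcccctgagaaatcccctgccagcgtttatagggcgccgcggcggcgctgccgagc
Tnfaip3: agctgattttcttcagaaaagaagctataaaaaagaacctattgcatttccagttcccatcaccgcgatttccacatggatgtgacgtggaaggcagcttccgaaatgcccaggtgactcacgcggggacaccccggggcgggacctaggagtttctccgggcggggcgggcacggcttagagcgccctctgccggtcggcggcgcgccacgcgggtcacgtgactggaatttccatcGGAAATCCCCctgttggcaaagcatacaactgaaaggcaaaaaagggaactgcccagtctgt
Rel: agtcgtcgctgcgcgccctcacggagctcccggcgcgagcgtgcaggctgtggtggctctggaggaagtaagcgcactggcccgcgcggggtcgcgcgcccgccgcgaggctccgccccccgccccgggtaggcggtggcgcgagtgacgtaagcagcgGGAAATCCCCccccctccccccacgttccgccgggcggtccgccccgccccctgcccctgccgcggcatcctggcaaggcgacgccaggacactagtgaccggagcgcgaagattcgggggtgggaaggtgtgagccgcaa

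The matches of Tnfaip3 and Rel were the same 10 letters, GGAAATCCCC, and that of Nfkbia read GGAAATTCCC. They began 12 bases before the start in Tnfaip3, 91 bases before it in Rel and 29 bases before it in Nfkbia. Of 32851 promoters in the RefSeq table, 535 (1.63%) held this motif on either strand. A looser motif, GGGNNNNNCC, which covers the stricter one, was found in 16686 (50.8%) and therefore sets few promoters apart. Another Tnfaip3 start held the looser motif without the stricter one. Among 18 other genes of the pathway, 17 had a promoter entry and 3 of these held the stricter motif, namely Nfkb2, Cyld and Traf2. A match describes letters in this window and shows no binding. Because the promoters are on GRCm38.p6 and the summits on mm9, whether a summit lies in one of these promoters was not determined, and summits are assigned to windows, not to genes. By gene order on GRCm38.p6, the nearest protein-coding neighbours are Manba and Slc39a8 for Nfkb1, Pus10 and Papolg for Rel, Clasrp and Clptm1 for Relb, Psma6 and Aldoart2 for Nfkbia, Zpld1 and Nxpe3 for Nfkbiz, and Perp and Olig3 for Tnfaip3, so a window can hold sites of a neighbour.

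Every value rests on 1 library per cell type. No difference between dendritic cells and 3T3 could be set against a replicate error, differences due to cell type and to the hairpin cannot be told apart, and intervals cover counting error only. PCR-amplified reads without molecular identifiers are not independent molecules, so the true error is wider. The score that accompanies each summit was taken as the height of the signal there, although the file does not name it. Its median was 36 over the whole dendritic cell list and 33 over the whole 3T3 list. Scores were ranked within a list, and between lists they were compared only at paired summits, relative to the median of all pairs. The number of reads behind each list is unknown, so a site without a summit is one where none was called.

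Resting cells of both types carried H3K4me1 at all 6 windows, at more places than in most stretches of the genome of the same length. The Nfkbiz window was the densest, with 17 summits in dendritic cells and 15 in 3T3 over 130 kb. Of 13551 tiles of that length, 4.36% held as many dendritic cell summits and 6.67% held as many 3T3 summits. The Nfkb1 window, of 180 kb, held 16 summits in dendritic cells, reached by 18.2% of tiles, and 15 in 3T3, reached by 18.4%. In the Rel window, of 120 kb, 12 dendritic cell summits (15.8% of tiles) stood against 8 in 3T3 (32.2%). The Relb window, of 100 kb, had 11 in dendritic cells (13.0%) and 6 in 3T3 (38.7%). For Tnfaip3, over 280 kb, the numbers were 24 in dendritic cells (16.0%) and 19 in 3T3 (25.5%). Nfkbia was the one window with fewer summits in dendritic cells, 7 (33.2% of 100 kb tiles) against 9 in 3T3 (19.3%). Tiles counted here hold at least 1 summit of either list, and the median such tile of 100 kb held 4 of each.

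**Figure D1:**
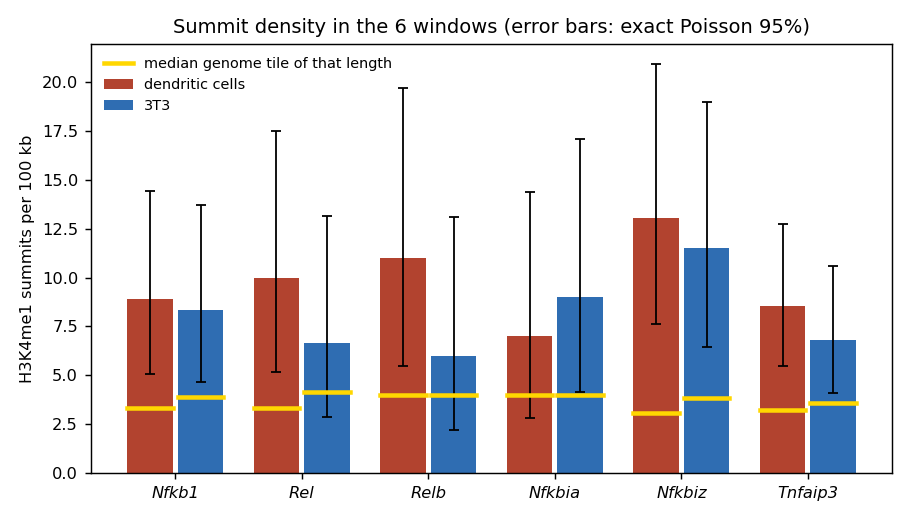
H3K4me1 summits per 100 kb (vertical axis) in each window, dendritic cells in red and 3T3 in blue, with exact Poisson 95% intervals and yellow lines at the median genome tile of that length for each list. Bars of both cell types stand above their yellow lines in every window, and the intervals of the cell types overlap in each.

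Dendritic cells had more summits than 3T3 in 5 of the 6 windows, but no window's difference exceeded the counting error. Over all 6 windows the log2 ratio of summit numbers, dendritic cells over 3T3 and relative to the whole lists, was 0.31 (95% interval -0.16 to 0.78). Relb had the highest ratio at 0.91 (-0.65 to 2.63), followed by Rel at 0.62 (-0.79 to 2.12). The ratio was 0.37 for Tnfaip3 (-0.56 to 1.32), 0.22 for Nfkbiz (-0.87 to 1.32) and 0.13 for Nfkb1 (-0.98 to 1.25). Nfkbia stood at -0.33 (-1.99 to 1.27), although its chromosome as a whole had relatively more dendritic cell summits (log2 ratio 0.48). With the window widened by 50 kb at each end, the Nfkbia value became 0.66 (-0.42 to 1.79), so its sign rests on where the window ends. The order of Relb and Rel was not fixed either. With windows so widened, Relb stood at 0.31 (-0.63 to 1.27) and Rel at 0.80 (-0.26 to 1.91). Relative to their own chromosomes, Relb stood at 0.60 (-0.96 to 2.32) and Rel at 0.71 (-0.70 to 2.21).

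Of the windows' summits, 32 of 87 in dendritic cells and 31 of 72 in 3T3 lay at a place marked in both cell types. A summit counts as shared here if the other list has one no more than 1000 bp away. Of the 87 dendritic cell summits, 55 had no 3T3 summit that near (63.2%, 52.2 to 73.3), against 69.4% of the whole dendritic cell list. Of the 72 3T3 summits, 41 had no dendritic cell summit that near (56.9%, 44.7 to 68.6), against 70.2% of the whole 3T3 list. The dendritic cell interval includes the value of its whole list, and the 3T3 interval ends just below that of its own. Without the Nfkb1 window the 3T3 interval was 44.1 to 70.9, without Relb 46.3 to 71.0 and without Nfkbia 45.6 to 71.0, and each of these includes the list. Dense stretches of the whole genome, the windows included, had values inside both intervals. In 100 kb tiles with at least 7 3T3 summits, 58.9% of dendritic cell summits were unshared, and in tiles with at least 9 dendritic cell summits, 53.5% of 3T3 summits were. These minimums are the means over the windows, 7.91 3T3 and 9.56 dendritic cell summits per 100 kb, rounded down. Some windows fall below them, so the tiles are not matched to each window in density. The comparison with the lists depended on the distance allowed. Within 250 bp, 19.5% (11.8 to 29.4) of the windows' dendritic cell summits had a 3T3 summit, against 17.8% of the list, and 23.6% (14.4 to 35.1) of their 3T3 summits had a dendritic cell summit, against 17.3%. Within 500 bp it was 24.1% (15.6 to 34.5) against 23.0% for dendritic cells and 29.2% (19.0 to 41.1) against 22.4% for 3T3. Both intervals include the list at these short distances. Within 2000 bp the windows' shares were 50.6% (39.6 to 61.5) against 40.8% for dendritic cells and 59.7% (47.5 to 71.1) against 39.6% for 3T3. Within 5000 bp they were 71.3% (60.6 to 80.5) against 59.3% for dendritic cells and 77.8% (66.4 to 86.7) against 56.1% for 3T3. Dense stretches were compared at 1000 bp only. Whether they differ from the lists as much at 2000 and 5000 bp was not tested. Nfkbia had the lowest unshared share in dendritic cells, 2 of 7 (28.6%, 3.67 to 71.0), and Tnfaip3 the highest, 18 of 24 (75%, 53.3 to 90.2). In 3T3 the lowest was Relb with 2 of 6 (33.3%, 4.33 to 77.7) and the highest again Tnfaip3 with 13 of 19 (68.4%, 43.4 to 87.4). These intervals overlap widely between windows.

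**Figure D2:**
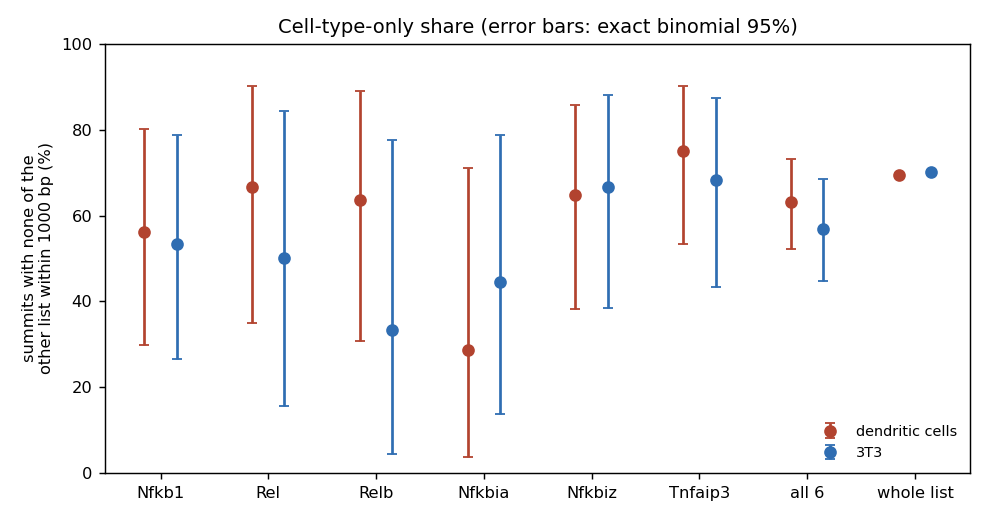
Percentage of summits with no summit of the other list within 1000 bp (vertical axis), by window, for all 6 windows and for the whole lists, dendritic cells in red and 3T3 in blue, with exact binomial 95% intervals. Taken as a group the windows lie at 63.2% in dendritic cells and 56.9% in 3T3, below the whole lists at 69.4% and 70.2%.

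Over all 6 windows together the heights were close to those of the whole lists, while single windows lay above or below them. Over the 6 windows the scores of both lists had a median of 38. Of the dendritic cell summits, 12 of 87 (13.8%, 7.34 to 22.9) were in the top 10% of their list, scores of 79 or more, which holds 10.2% of the list because of ties. Of the 3T3 summits, 6 of 72 (8.33%, 3.12 to 17.3) were in the top 10%, scores of 75 or more, which holds 10.1%. Nfkb1 contributed 5 of these in dendritic cells and 2 in 3T3, Nfkbia 4 and 3, Tnfaip3 2 and 1, and Relb 1 and 0. Rel and Nfkbiz had none in either list. Within the windows, dendritic cell summits scored 47 at the median where shared and 32 where unshared (40 and 34 over the whole list). The 3T3 summits scored 39 where shared and 33 where unshared (36 and 32 over the whole list).

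**Figure D3:**
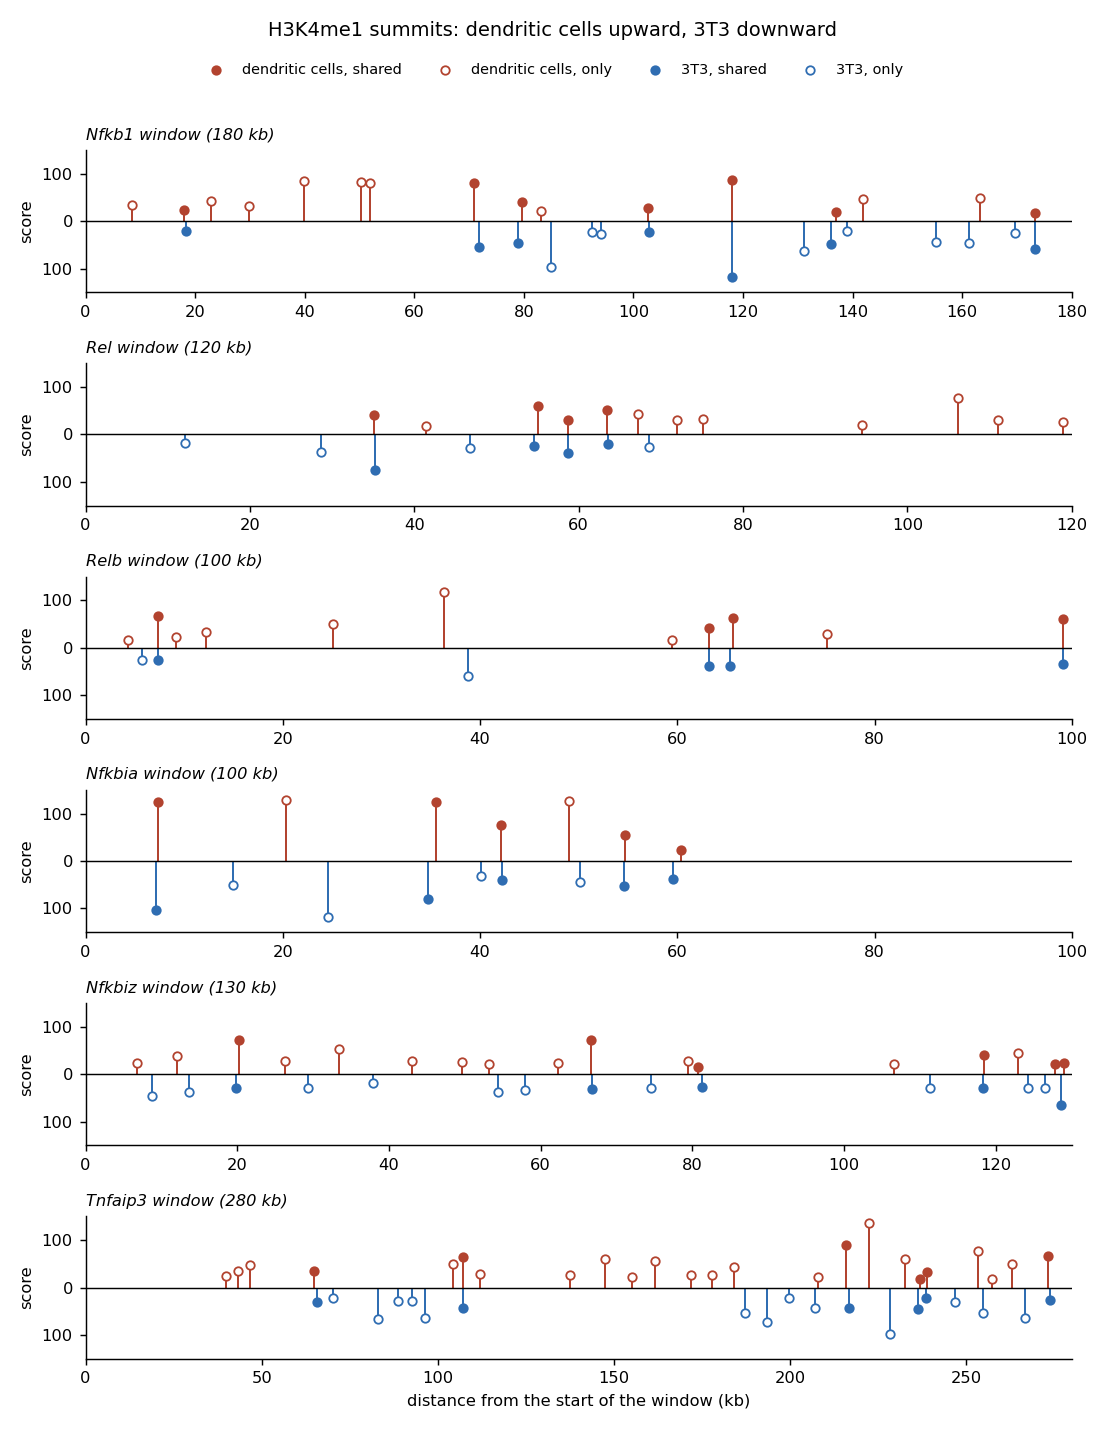
Position of each H3K4me1 summit as distance from the start of its window in kb (horizontal axis) and its score (vertical axis), dendritic cells upward in red and 3T3 downward in blue, with filled circles for shared and open circles for unshared summits. Scores of the cell types are not on a common scale. The 7 open red circles in the middle of the Tnfaip3 window and the unshared red circles at the right of the Rel window face stretches with no blue summit.

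Among the subunit genes, the Nfkb1 window was divided into stretches marked in one cell type and sites marked in both. The window spans 135220000 to 135400000 on chromosome 3. Its highest summit was shared and nearly at the same base, at 135337997 with a score of 87 in dendritic cells and at 135338004 with a score of 117 in 3T3. The next dendritic cell summits, at 135259830 (score 85) and 135270266 (score 82), had their nearest 3T3 summits 21484 and 21562 bp away. They lie in a stretch of 53.5 kb, from 135238346 to 135291828, with 6 dendritic cell summits between 3T3 summits at its ends. The last of the 6, at 135290910, was shared with the 3T3 summit at the end, 918 bp away. The next 3T3 summits, at 135304905 (score 96) and 135351248 (score 62), were unshared as well. The summit at 135304905 opened a run of 3 unshared 3T3 summits that reached 135314014. A further run of 3, from 135375239 to 135389715, had 1 dendritic cell summit among them. At the far end of the window, a pair only 8 bp apart had a score of 18 in dendritic cells and 59 in 3T3.

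The Rel window, 23600000 to 23720000 on chromosome 11, was marked by both cell types in its middle. It was marked by 3T3 alone before that and by dendritic cells alone beyond it. Unshared dendritic cell summits formed a run of 3 from 23667217 to 23675149, with 1 3T3 summit among them. This run closed a cluster: 6 dendritic cell summits, each less than 5 kb from the next, lay from 23654989 to 23675149. Those at 23654989, 23658686 and 23663540 were shared, with scores of 59, 31 and 52 in dendritic cells and of 25, 39 and 20 at their 3T3 partners. From the 3T3 summit at 23668641 to the end of the window, 51.4 kb held 6 dendritic cell summits and none of 3T3. The highest of these, at 23706205, had the highest dendritic cell score of the window, 76, at or above 88.9% of its list. The stretch without 3T3 summits went on past the window for 131 kb in all, with 12 dendritic cell summits. The highest 3T3 summit lay 35.2 kb from the start of the window, at 23635185 with a score of 74, and its dendritic cell partner 40 bp away scored 40. Next in 3T3 came the summits at 23658659 (39) and 23628613 (38). From the start of the window to the dendritic cell summit at 23635145, 35.1 kb held 2 3T3 summits and none of dendritic cells. These 3T3 summits, at 23612123 (18) and 23628613, were both unshared.

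In the Relb window, 20150000 to 20250000 on chromosome 7, the highest summit belonged to dendritic cells and was unshared. It lay at 20186263 with a score of 118, above or equal to 98.1% of its list. The nearest 3T3 summit, 2507 bp away at 20188770, was also the highest of 3T3 there, with a score of 60. Of the window's 6 3T3 summits 4 were shared, and of its 11 dendritic cell summits 4, at the same sites. Over the whole lists 29.8% of 3T3 and 30.6% of dendritic cell summits were shared. The intervals of the window's unshared shares, 4.33 to 77.7% in 3T3 and 30.8 to 89.1% in dendritic cells, include the values of both lists. A couple of neighbouring summits recurred in both lists with the same arrangement. In dendritic cells they lay at 20213238 and 20215568, 2330 bp apart, with scores of 42 and 62. In 3T3 they lay at 20213175 and 20215325, 2150 bp apart, with scores of 39 and 38. The remaining shared sites were those at 20157259 (67 in dendritic cells, 25 in 3T3) and at 20249134 (61 in dendritic cells, 35 in 3T3).

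Among the regulators, the Nfkbia window had the highest median score of the 6 windows in both lists. It spans 56540000 to 56640000 on chromosome 12. In dendritic cells, 4 of the 7 summits scored between 125 and 129, at 56547283, 56560291, 56575511 and 56589002, so that at least 98.6% of the list scored no higher. The window's median was thus 125 for dendritic cells, against 36 for the whole list, while for 3T3 it was 51, against 33. The highest 3T3 summits were those at 56564581 (119), 56547142 (103) and 56574730 (80). Pairs were found at 5 sites. Along the chromosome the scores were 125, 125, 75, 54 and 23 in dendritic cells and 103, 80, 40, 52 and 38 at the 3T3 partners. The unshared dendritic cell summits, at 56560291 (129) and 56589002 (127), had 3T3 summits 4290 and 1121 bp away, with scores of 119 and 44. Beyond 56600445 no dendritic cell summit and beyond 56599645 no 3T3 summit was listed in the window.

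The Nfkbiz window, 55770000 to 55900000 on chromosome 16, combined many summits with low scores. Dendritic cell summits had a median of 27 there, and 3T3 summits of 29. The highest dendritic cell summits, at 55836619 (73) and 55790186 (72), were shared with 3T3 summits that scored 30 and 28, close to the window's 3T3 median. The highest 3T3 summit, at 55898562 (65), was shared with dendritic cell summits at 55897760 (22) and 55898853 (24). The third in dendritic cells, at 55803350 (53), and the next in 3T3, at 55778807 (45) and 55824370 (38), were unshared. Between 55796328 and 55832330 ran 6 unshared dendritic cell summits, with 4 unshared 3T3 summits interspersed among them. At the remaining shared sites the scores were 15 in dendritic cells and 27 in 3T3 near 55850740, and 40 in dendritic cells and 28 in 3T3 near 55888370.

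In the Tnfaip3 window, 18500000 to 18780000 on chromosome 10, blocks of sites of one cell type followed each other in the middle. From 18582879 to 18596423 there were 4 unshared 3T3 summits and none of dendritic cells, with scores up to 67. From 18637628 to 18684181, over 46.6 kb, there were 7 unshared dendritic cell summits and none of 3T3, with scores up to 60. Shorter runs of 3 unshared dendritic cell summits were found at 18539987 to 18546670 and at 18753288 to 18763017, the second with 1 3T3 summit among them, at 18754676 with a score of 54. Beyond the long run, from 18687225 to 18706984, came 4 unshared 3T3 summits with scores up to 72. The whole stretch without a 3T3 summit, from 18607055 to 18687225, was 80.2 kb long and held 9 dendritic cell summits. The first of them, at 18607270, was shared with the 3T3 summit at 18607055. The highest summit also differed in place between the lists. In dendritic cells the highest was at 18722361 (136, above or equal to 99.2% of the list), followed by 18715917 (90) and 18753288 (77). In 3T3 it was at 18728354 (97), followed by 18693463 (72) and 18582879 (67). The peak at 18722361 had its nearest 3T3 summit 5772 bp away. That at 18715917 was shared with a 3T3 summit of score 42, 672 bp away. That at 18753288 had one of score 54 at 1388 bp. The 3 highest 3T3 summits were unshared, with the nearest dendritic cell summits 4189, 9282 and 18014 bp away. As in the Relb window, a couple of neighbouring summits recurred in both lists, at 18736788 and 18738847 in dendritic cells (scores 18 and 32) and at 18736228 and 18738718 in 3T3 (scores 45 and 21).

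At the 31 sites with mutually nearest summits, neither cell type had the higher score throughout: 19 pairs were higher in dendritic cells and 12 in 3T3, after scaling to the median pair. Taking log2 of dendritic cells over 3T3 relative to the median of all 24378 pairs, the median of the 31 was 0.16 (-0.32 to 0.58, from the order of the values), and the quartiles of all pairs were -0.54 and 0.53. The score was at least 2-fold higher in dendritic cells at 6 of the 31 (19.4%, 7.45 to 37.5), against 11.6% of all pairs. It was at least 2-fold higher in 3T3 at 5 of the 31 (16.1%, 5.45 to 33.7), against 11.9% of all pairs. Both intervals include the share of all pairs.

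Of the 5 pairs with the largest ratios, 4 were higher in 3T3. The pair at the end of the Nfkb1 window (18 in dendritic cells, 59 in 3T3) had a relative log2 ratio of -1.83 (-2.68 to -1.05). The pair at 55898853 in the Nfkbiz window (24 in dendritic cells, 65 in 3T3) had -1.56 (-2.30 to -0.86). One member of the recurring couple in the Tnfaip3 window, at 18736788 (18 in dendritic cells, 45 in 3T3), had -1.44 (-2.32 to -0.63). A pair in the Nfkb1 window at 135356930 (20 in dendritic cells, 49 in 3T3) had -1.41 (-2.24 to -0.64). The pair at 20157259 in the Relb window (67 in dendritic cells, 25 in 3T3) was higher in dendritic cells, at 1.30 (0.62 to 2.02). In these cases the interval, which takes each score as a number of reads, excludes 0, but the pairs were picked for their ratio. Their summits lay 8, 291, 560, 893 and 57 bp apart, in the order given. Those at 18736788 and 135356930 would thus not be pairs within 500 bp. The dendritic cell scores of the 4 pairs higher in 3T3, 18 to 24, were low, below the 25th percentile of that list (26).

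With 4 to 7 pairs each, the windows could not be told apart by the direction of their pairs, and no difference between windows was tested. In the Nfkb1 window the median was -0.32. There 0 of 7 pairs (0 to 41.0%) were 2-fold higher in dendritic cells, against 11.6% of all pairs, and 2 of 7 (28.6%, 3.67 to 71.0) were 2-fold higher in 3T3, against 11.9%. In the Relb window the median was 0.63 with 3 of 4 pairs above 0 and 1 of 4 (25%, 0.631 to 80.6) 2-fold higher in dendritic cells. In the Tnfaip3 window it was 0.45 with 5 of 6 above 0. These intervals all include the share of all pairs. The 5 Nfkbia pairs had a median of 0.16 and none reached 2-fold in either direction, but its dendritic cell summits of 129 and 127 are in no pair. Rel (median 0.34) and Nfkbiz (median 0.39) each had 2 pairs 2-fold higher in dendritic cells and 1 in 3T3.

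**Figure D4:**
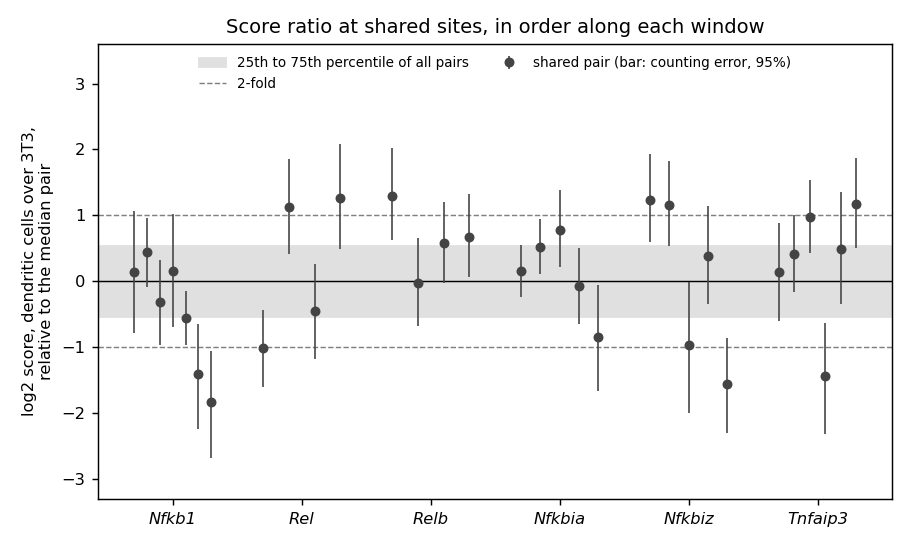
Log2 score ratio of dendritic cells over 3T3 at each shared pair, relative to the median of all pairs (vertical axis), in order along each window, with 95% intervals from counting error. Dashed lines mark 2-fold and the grey band the 25th to 75th percentile of all pairs, from -0.54 to 0.53. Points lie on both sides of 0 in every window, and 11 of the 31 lie at or beyond a dashed line.

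Runs of unshared summits were counted only where they lay wholly inside a window, so the windows' shares are minimum values. In such runs, of at least 3 consecutive unshared summits less than 10 kb apart, stood 25 of 87 dendritic cell summits (28.7%), against 26.9% of the whole list. In 3T3 it was 14 of 72 (19.4%), against 25.2%. The whole lists lost no runs at window edges. At the end of the Rel window, unshared dendritic cell summits at 23706205, 23711050 and 23718911, less than 10 kb apart, were left out for this reason. Of the runs counted, 6 were of dendritic cells and 4 of 3T3, and the Tnfaip3 window held 3 and 2 of these. Neighbouring summits 1 to 3 kb apart, both shared, were found at 2 of 9 such neighbours in dendritic cells, against 15.0% in the list, and at 2 of 8 in 3T3, against 16.1%. These are the couples in the Relb and Tnfaip3 windows.

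Long stretches bare of 3T3 summits but with dendritic cell summits lay wholly inside the window at 1 place in Nfkb1 and 1 in Tnfaip3, and elsewhere mostly outside it. The stretch of 53.5 kb in the Nfkb1 window held 6 dendritic cell summits and that of 80.2 kb in the Tnfaip3 window held 9. The Rel stretch held 12 over 131 kb, of which 6 lay in the 51.4 kb inside the window. The Nfkbia stretch held 16 over 307 kb, of which 1 lay inside, and the Nfkbiz stretch held 6 over 73.3 kb, of which 1 lay in the 1.44 kb inside. A further one touching the Tnfaip3 window held 5 over 298 kb, 4 of them inside. Counted whole, 5 of these 6 stretches of at least 50 kb held at least 6 dendritic cell summits, against 17.6% of 7464 such stretches in the genome. That count rests largely on summits outside the windows at Nfkbia and Nfkbiz. The numbers include dendritic cell summits shared with the 3T3 summit that bounds the stretch. Inside the windows these are 135290910 at Nfkb1, 18564865 and 18607270 at Tnfaip3, 56600445 at Nfkbia and 55898853 at Nfkbiz. The Nfkb1 and Nfkbiz stretches reach 6 only with them. In the reverse direction, 2 stretches of at least 50 kb without a dendritic cell summit touched a window, at Nfkb1 and Tnfaip3, and held 3 and 0 3T3 summits, against 23.5% of such stretches in the genome with at least 6. The minimum of 6, equal to the lowest of the 5 counts, and the length were chosen after the values had been seen. Stretches of all lengths above 50 kb were counted alike, and a longer one touches a window more readily. The comparison with the genome's shares therefore cannot set these windows apart.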

How the data were processed

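H3K4me1 was measured by ChIP-seq in unstimulated dendritic cells and unstimulated 3T3, 1 library each. Per the labels' protocols, chromatin came from formaldehyde-fixed nuclei, with fragments of around 300 bp, 18 PCR cycles and single reads of 36 bp. The submitters' processing notes name Bowtie, MACS 1.4 and mm9. The threshold on the p-value was 1e-04, per the file headers, which also give a shift of 150 bp and state that neither a fragment model nor a local background was used. Whether input entered the calling is not stated there. For each summit the authors deposited a position and a score, taken here as a signal (whole numbers of 13 or more). No scaling between lists is recorded, and read depth is unknown.

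Groups came from sample titles. Positions are 1-based on mm9. Windows and lists were chosen with earlier results of these data known. The text names, per window and list, the 3 highest summits, the pairs of Rel, Relb, Nfkbia and Nfkbiz, the 5 most unequal pairs, and runs. The top 10%, couples of neighbours, dense tiles and long stretches were added after seeing the data. Shares carry exact Clopper-Pearson 95% intervals, numbers exact Poisson ones, and ratios those of the conditional binomial. No test compares the cell types. The overlap and pairing code was tested on the dendritic cell list with partners planted close to its summits. That test checked the recovery of planted partners and their score ratio, not how often unrelated summits meet. Distances to genes had been planned and were not run, as the gene table is of GRCm38.p6. The other genes of the pathway were examined only for promoter motifs. Computation used scipy 1.17.1 and numpy 2.4.6 for intervals, pandas 2.3.3 for tables and matplotlib 3.10.9 for figures, under Python 3.11.15.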

Additional observations from a re-analysis of the deposited data

How the results depend on the processing

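The unshared share moved with the distance that counts as shared. At 250, 500 and 2000 bp it took values of 80.5, 75.9 and 49.4% for dendritic cells and of 76.4, 70.8 and 40.3% for 3T3. Keeping only the 39898 summits of highest score from each list gave 71.7% for dendritic cells and 66.7% for 3T3, inside the counting intervals, as were the values after merging of summits within 1000 bp. The share over the whole lists was not computed for these top-scoring summits. The values of 71.7 and 66.7% therefore cannot be set against the 69.4 and 70.2% of the full lists. Leaving out each window in turn, a choice made after seeing the data, gave a lowest and highest value of 58.7 and 66.2% for dendritic cells, and of 52.8 and 59.1% for 3T3. The log2 ratios of summit numbers stayed within their counting intervals under every setting tried, though that of Nfkbia changed sign when its window was widened (0.66). With tiles that hold no summit kept, the shares of tiles as dense as the window fell. They were then 12.8% in dendritic cells and 12.9% in 3T3 for Nfkb1, 10.5 and 21.2% for Rel, 8.30 and 24.7% for Relb, 21.2 and 12.4% for Nfkbia, 2.91 and 4.45% for Nfkbiz, and 12.0 and 19.0% for Tnfaip3. The median score ratio of pairs was 0.42 within 250 bp, 0.41 within 500 bp and 0.15 within 2000 bp, all inside its interval. Of 84 alternative values, 66 stayed inside the counting interval of the reported value and 18 did not. The 18 were the unshared shares at other distances and the shares of tiles with empty tiles kept. Many intervals are wide, so staying inside is a weak criterion. The 66 include the Nfkbia ratio that changed sign, whose interval was -1.99 to 1.27. No paired analysis was possible because each cell type has 1 library, and none could be left out. Unknown depth means that low sites may have gone uncalled in either list.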
